A study of Mus musculus with 6 samples.

Results

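The growth arrest specific gene *Gas5* and 9 further host genes of small nucleolar RNAs (snoRNAs) were followed in the proximal tibial epiphysis of Longshanks and Control mice. The members were the rows of the deposited table whose Ensembl identifier carries the symbol *Gas5*, *Snhg1*, *Snhg3*, *Snhg5*, *Snhg6*, *Snhg8*, *Snhg12*, *Snhg15*, *Zfas1* or *Epb41l4aos* in the GRCm38 annotation. All 10 were found among the 47729 genes of the table, and 9 of them passed the filter on low counts. *Gas5* was one of the genes that the study itself picked from these libraries for follow-up, so its difference between the lines is not independent evidence of its direction.

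RNA was sequenced from 14-day-old mice, 3 of the Control line and 3 of LS1. LS1 is the Longshanks 1 line, selected for tibiae that are long for the size of the mouse, and Control is an ICR line that was bred at random. The mice of each line came from different families of the same generation, and the labels used here do not give their sex. Both proximal epiphyses of a mouse were pooled into 1 library of polyadenylated RNA, which therefore mixes growth plate and articular cartilage, bone and marrow. One selected line was compared with one control line, so selection and chance divergence of the lines cannot be told apart, and in whole tissue neither can fewer cells of a type and less RNA per cell.

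The members are mostly long non-coding genes that are transcribed and spliced for what their introns hold. The snoRNAs cut out of those introns join proteins such as fibrillarin or dyskerin and guide the 2′-O-methylation (C/D box class) or pseudouridylation (H/ACA box class) of ribosomal RNA. The spliced exons that remain, which are what polyadenylated libraries sample, are for several hosts short-lived, since they carry only short reading frames and are removed by nonsense-mediated decay while translation is active. Transcripts of *Gas5* and *Snhg1* begin with the pyrimidine-rich 5′ terminal (TOP) tract that also marks ribosomal protein mRNAs. *Gas5* was first described as a transcript that accumulates in growth-arrested cells, and its RNA can bind the glucocorticoid receptor.

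Control libraries held 68803249 to 76581954 reads and LS1 libraries 82227711 to 88745366, so every LS1 library was the deeper. The values given are read counts divided by the size factor of the library, called normalized counts below. LS1 replicate 3 stood apart from the other LS1 libraries. For 12 interferon-stimulated genes its median log2 difference from the Control mean was 0.10, against 1.70 and 2.87 in LS1 replicates 1 and 2, and without it the number of genes called between the lines went from 14 to 324. The fold changes of the tested members are therefore given with and without it.

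The snoRNA genes inside *Gas5* are shown first because they are what this host gene is known for. *Gas5* (ENSMUSG00000053332) lies on the plus strand of chromosome 1, chr1:161034422-161038539 (GRCm38). It has 25 annotated transcripts with up to 12 exons, and it holds 10 annotated snoRNA genes at 9 separate positions, of which the longer of the 2 overlapping *Snord80* entries is printed. The sequences were read from GENCODE M21 in the direction of transcription, 5′ to 3′. Capitals mark the letters TGATGA of box C where they lie within the first 20 bases, and the letters CTGA of box D within the last 20 bases.
Gm26224: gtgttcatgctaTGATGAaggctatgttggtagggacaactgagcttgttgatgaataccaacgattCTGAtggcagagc
Gm22489: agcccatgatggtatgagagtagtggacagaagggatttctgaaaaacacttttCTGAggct
Gm22357: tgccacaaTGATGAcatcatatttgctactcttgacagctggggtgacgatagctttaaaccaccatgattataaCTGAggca
Gm23212: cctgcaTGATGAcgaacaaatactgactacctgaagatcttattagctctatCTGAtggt
Snord78: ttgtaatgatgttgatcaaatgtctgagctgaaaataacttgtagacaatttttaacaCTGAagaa
Mir5117: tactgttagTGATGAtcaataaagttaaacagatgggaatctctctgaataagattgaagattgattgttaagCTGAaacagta
Snord80: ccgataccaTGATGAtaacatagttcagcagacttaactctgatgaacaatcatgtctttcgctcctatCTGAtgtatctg
Snord47: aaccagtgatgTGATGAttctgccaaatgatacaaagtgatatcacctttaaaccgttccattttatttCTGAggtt
Gm25789: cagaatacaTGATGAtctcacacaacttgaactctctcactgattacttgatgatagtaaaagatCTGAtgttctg
Of the 10 entries, 8 held both sets of letters, and the other 2, Gm22489 and *Snord78*, held CTGA alone. On their own strand, 20.5% of the 1507 snoRNA genes of the annotation held both. *Snord47* runs from chr1:161038082 to 161038158, and the first of the series, Gm26224, from chr1:161035394 to 161035473.

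*Snhg1* (ENSMUSG00000108414, chr19:8723475-8726443, plus strand) followed with 18 transcripts and 8 snoRNA genes, 5 of them with both sets of letters. It is the host of *Snord22*, which lacks TGATGA in this window. Its first 3 snoRNA genes by position are shown for comparison with those of *Gas5*.
Gm25855: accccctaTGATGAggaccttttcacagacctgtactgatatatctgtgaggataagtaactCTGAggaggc
Gm25894: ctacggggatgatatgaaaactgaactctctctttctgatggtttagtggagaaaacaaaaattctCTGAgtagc
Gm24452: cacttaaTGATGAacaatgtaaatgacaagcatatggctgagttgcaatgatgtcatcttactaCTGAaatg
*Snhg5* (ENSMUSG00000097195, chr9:88521050-88522929, minus strand) carries a near-identical pair. *Snord50a* and *Snord50b* are both 72 bases long and differ at 1 base, C50A, counted from the 5′ end of *Snord50a*.
Snord50a: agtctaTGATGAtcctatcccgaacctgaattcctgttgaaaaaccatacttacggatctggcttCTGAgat
Snord50b: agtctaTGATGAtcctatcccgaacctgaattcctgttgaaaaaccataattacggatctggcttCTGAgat
*Zfas1* (chr2:167062934-167065862) held 3 snoRNA genes and *Snhg6* (chr1:9941959-9944118) held 1, all with both C/D letter sets. The H/ACA class was read as the letters ACA placed 3 bases before the end with the C/D pair absent, and 18.3% of annotated snoRNA genes have those letters there. The class was met by both snoRNA genes of *Snhg3* (chr4:132348014-132353686), by 3 of the 5 entries in *Snhg12* (chr4:132308623-132311024), and by the single ones in *Snhg8* (chr3:123507552-123508404), *Snhg15* (chr11:6525591-6528760) and *Epb41l4aos*. The members are thus hosts of both classes. By exact letters, 20 of the 34 entries met the C/D pattern, 8 the H/ACA pattern and 6 neither. An entry with variant letters counts as neither, whatever its class. The overlapping entries of *Snord80* and of *Snora16a* were counted separately.

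**Figure D1:**
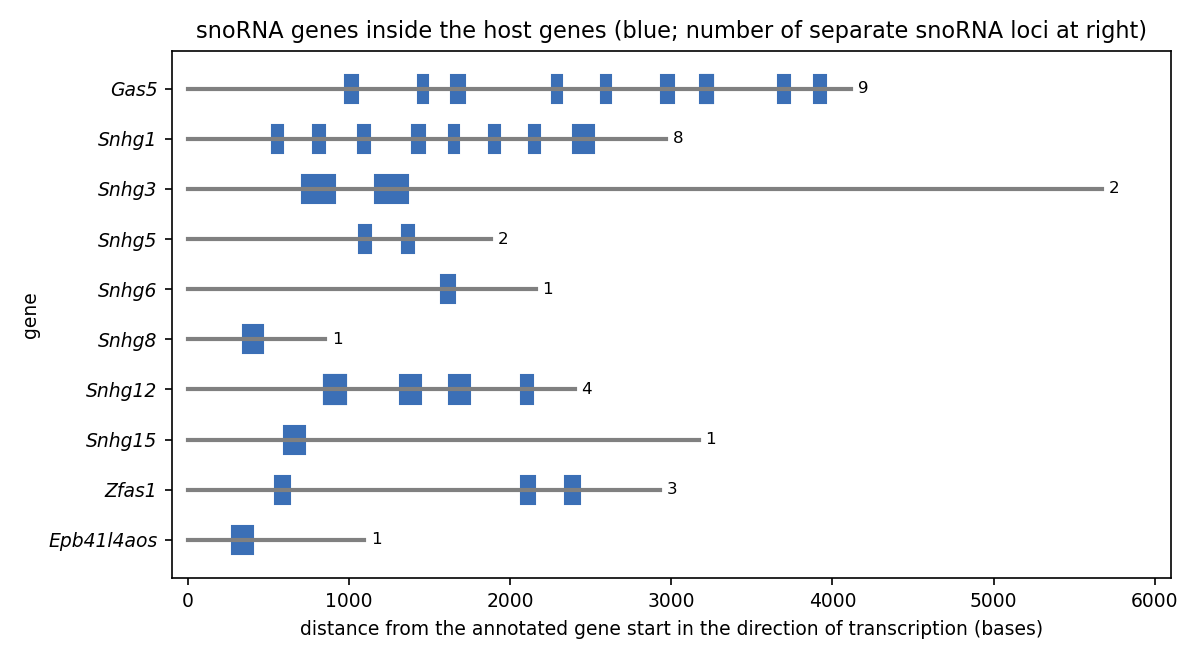
Each grey line is a host gene drawn to scale from its annotated start in the direction of transcription, in bases, and each blue box is an annotated snoRNA gene inside it on the same strand. The number at the right counts separate snoRNA positions, 9 in *Gas5*, 8 in *Snhg1* and 1 to 4 in the other hosts.

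The snoRNAs themselves were not measured by these libraries. Of the 34 snoRNA genes, 31 had no read in any of the 6 libraries, which by counting noise alone allows up to 3 reads of each in a library. All those of *Gas5* and *Snhg1* were among the 31, and each lies wholly within annotated exons of its host. How reads that overlap more than 1 gene were counted is not stated in the sources used here, so these zeros may not bound the reads. *Snord87* in *Snhg6* had 153 reads in all and Gm23639 in *Epb41l4aos* had 115, and neither shares exonic bases with its host. *Snora73b* in *Snhg3* shares none with its host either, and it had no read. The entry with 1 read was 1 of *Snora16a*. Mature snoRNAs carry no poly(A) tail, so the values that follow describe the spliced or retained host transcripts.

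*Gas5* was the most abundant member in both lines. Per kilobase of merged exons, its Control mean was 7825 ± 686 normalized counts (SD, n = 3), against 3957 ± 329 for *Snhg1* and 2226 ± 386 for *Snhg5*. *Epb41l4aos* at 1654, *Zfas1* at 1342 and *Snhg8* at 1226 formed a middle group in which neighbouring genes overlapped between libraries. *Snhg12* at 778 and *Snhg6* at 759 also overlapped, *Snhg15* stood at 343 and *Snhg3* at 20.3. By this length the order of the means was the same in LS1. Among the 1829 tested long non-coding genes, *Gas5* ranked 4 in Control and 8 in LS1 by this level, while *Snhg1* ranked 10 in both. With the longest transcript as the length in place of the merged exons, *Zfas1* and *Epb41l4aos* changed places in both lines, and in LS1 *Snhg12* at 1455 and *Snhg6* at 1186 also came before *Snhg8* at 1162.

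*Gas5* was lower in every LS1 library than in any Control library. The 3 Control libraries held 28214, 27664 and 32384 normalized counts, and the LS1 libraries 13477, 15576 and 18725. The lowest Control value was thus well above the highest LS1 value, and the lines did not overlap. The means were 29421 ± 2581 and 15926 ± 2641 (SD, n = 3), so the LS1 mean was 54.1% of the Control mean. In the limma fit over all genes the log2 fold change of *Gas5* was -0.89 (SE 0.15, 95% interval -1.22 to -0.57) with an adjusted p of 0.0671, which did not pass the threshold of 0.05. By its unadjusted p of 8.0e-05 it ranked 23 of 19308 genes, and 2.04% of genes had a log2 fold change as low or lower. An exact two-sided permutation test gave 0.1, the smallest p that 3 libraries against 3 allow.

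The call on *Gas5* depended on the test and on 1 library, while its direction did not. DESeq2 on the recovered reads called it with an adjusted p of 6.25e-05 and a log2 fold change of -0.90. The quasi-likelihood test of edgeR gave an adjusted p of 0.106. Without LS1 replicate 3, the highest of the LS1 libraries, limma gave -1.02 with an adjusted p of 0.00505. That setting called 1.68% of all genes. It was also called without a filter on reads (adjusted p = 0.0104), where 0.117% of genes were. Over 19 alternatives the log2 fold change stayed between -1.02 and -0.78, and the adjusted p ran from 6.25e-05 to 0.307.

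*Snhg1* showed the same order of lines with a smaller difference. Its Control libraries held 10972, 11432 and 12845 normalized counts and its LS1 libraries 8406, 8827 and 9659. The lines did not overlap here either. The LS1 mean of 8964 ± 638 was 76.3% of the Control mean of 11749.5 ± 976 (SD, n = 3). The log2 fold change was -0.39 (SE 0.13) with an unadjusted p of 0.0105 and an adjusted p of 0.271 from limma. None of the 19 alternatives called it, with adjusted p from 0.130 to 0.569, and all gave a negative value. Without LS1 replicate 3 the log2 fold change was -0.44.

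**Figure D2:**
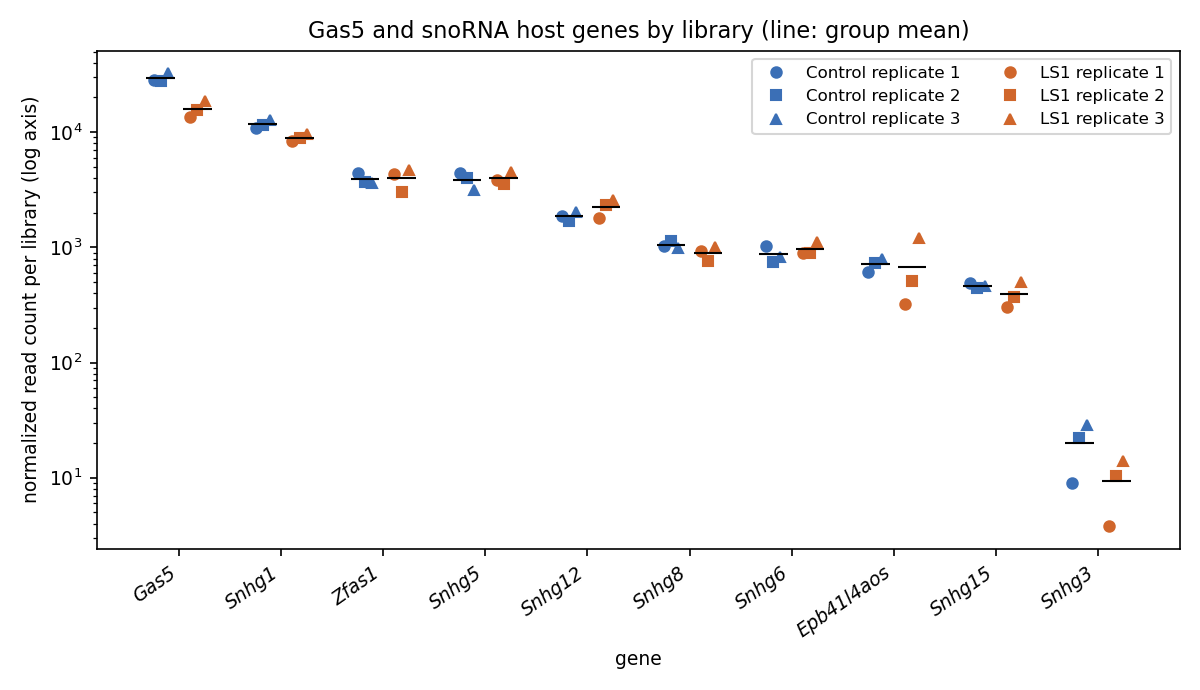
Normalized read count of each member in each library, on a log axis, with Control in blue, LS1 in orange and a black line at each group mean. *Gas5* and *Snhg1* are the members with enough reads for the test in which all 3 LS1 points lie below all 3 Control points.

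The other C/D hosts overlapped between the lines. *Snhg5* held 4426, 4005 and 3119 normalized counts in Control and 3877, 3551 and 4486 in LS1, a log2 fold change of 0.05 (95% interval -0.30 to 0.41). *Zfas1*, which lies beside the *Znfx1* promoter and hosts the *Snord12* group, held 4457, 3716 and 3621 in Control and 4307, 3038 and 4731 in LS1, a log2 fold change of 0.02 (-0.37 to 0.40). For these a difference as large as that of *Gas5* lay outside the interval. *Snhg6* ranged from 746 to 1036 in Control and from 894 to 1109 in LS1, with a log2 fold change of 0.16 (-0.26 to 0.58). The adjusted p values of the 3 genes ran from 0.753 to 0.982. Without LS1 replicate 3 the log2 fold changes were -0.038 for *Snhg5*, -0.11 for *Zfas1* and 0.058 for *Snhg6*. *Snhg6* ranged from 0.057 without Control replicate 2 to 0.29 without Control replicate 1.

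The hosts of H/ACA snoRNAs were also not called. *Snhg12*, which mixes both classes, had the highest log2 fold change of the members at 0.25 (-0.12 to 0.62), with 1865, 1693 and 2046 normalized counts in Control and 1811, 2345 and 2557 in LS1. Its lowest LS1 library lay inside the Control range. The value was 0.15 without LS1 replicate 3 and 0.39 without LS1 replicate 1, with unadjusted p of 0.437 and 0.0183 and called by limma in neither. *Snhg8* (983 to 1131 in Control, 759 to 1007 in LS1) had a log2 fold change of -0.22 and *Snhg15* (443 to 489 in Control, 304 to 497 in LS1) one of -0.28. In both, LS1 replicates 1 and 2 lay below the Control range, while LS1 replicate 3 lay inside it for *Snhg8* and above it for *Snhg15*. Without LS1 replicate 3 the log2 fold changes were -0.31 and -0.47. *Snhg8* was at -0.10 without LS1 replicate 2, and *Snhg15* at -0.11 without LS1 replicate 1.

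*Epb41l4aos* was the most variable member in LS1 by coefficient of variation, but not in Control. It held 611, 734 and 789 normalized counts in Control, but 320, 511 and 1204 in LS1, where the coefficient of variation was 68.6%. Its lowest LS1 libraries lay under the Control range and LS1 replicate 3 above it. The log2 fold change was -0.28 (SE 0.42, 95% interval -1.24 to 0.67) with all libraries and -0.81 without LS1 replicate 3, called in neither. *Snhg3* averaged 14.3 reads and was left untested. It held 9.08, 22.2 and 28.8 normalized counts in Control and 3.81, 10.4 and 14.0 in LS1, and it shares 135 exonic bases with *Rcc1* on the same strand and 705 with Gm17300 on the other.

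**Figure D3:**
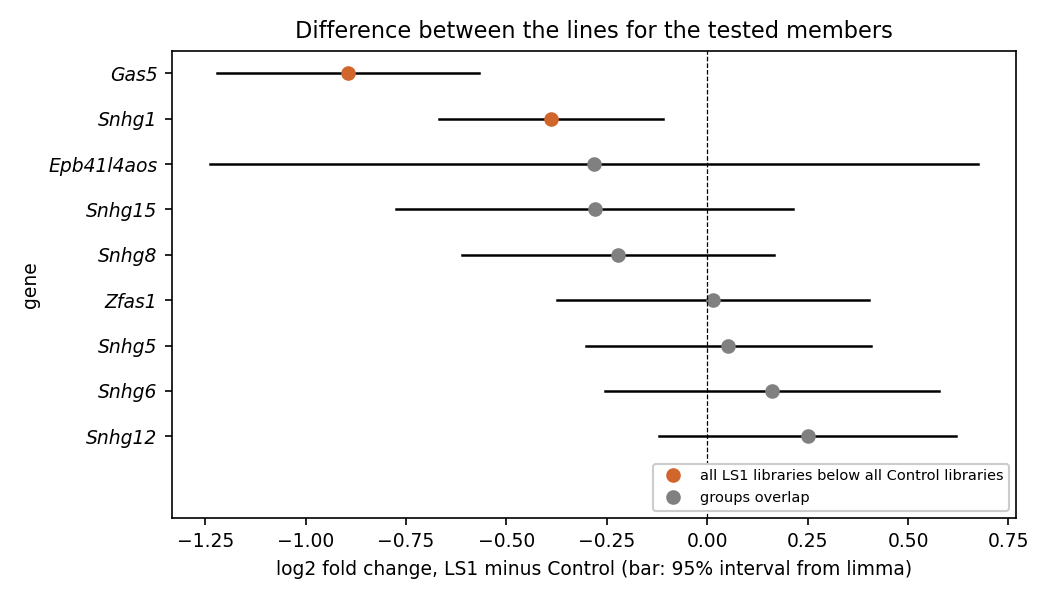
Log2 fold change, LS1 minus Control, of the 9 tested members, with bars for the 95% interval from limma. Orange points are the genes whose lines do not overlap. The intervals of *Gas5* and *Snhg1* lie below 0, and those of the other 7 members include it.

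Counted together, 0 of the 9 tested members were called by limma, where 0.0725% of all tested genes were. DESeq2 called 1 member, *Gas5*, and 2.51% of the genes to which it gave an adjusted p, and edgeR called 0 members and 0.0363% of genes. An unadjusted p under 0.05 with lower values in LS1 was reached by 2 of the 9, against 5.86% of all genes. All LS1 libraries lay below all Control libraries in 2 of the 9, *Gas5* and *Snhg1*, against 8.94% of all genes, and above them in 0, against 10.3%. The median log2 fold change of the 9 was -0.22, beside 0.01 over all genes, and 5 of the 9 were negative. Without LS1 replicate 3 the median was -0.31, and *Snhg8*, *Snhg15* and *Epb41l4aos* joined the genes that lay wholly below Control, 5 of 9 against 16.6% of all genes. With any other library left out, 2 or 3 of 9 lay wholly below Control, against 12.4% to 14.1% of all genes. With Control replicate 1 or LS1 replicate 1 left out, 1 member lay wholly above, against 16.2% and 16.1% of all genes. Without LS1 replicate 1 the median was -0.05.

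*Gas5* took a smaller share of the members' summed values in LS1. It made up 53.1% to 56.7% of their summed normalized counts in Control, and 39.2%, 43.4% and 42.6% in LS1 replicates 1, 2 and 3. The ratio of *Gas5* to *Snhg1* lay between 2.42 and 2.57 in Control libraries and at 1.60, 1.76 and 1.94 in LS1 replicates 1, 2 and 3, again without overlap. The other 9 members summed to between 23923 and 24889.6 in Control and to 20867, 20308 and 25264 in LS1 replicates 1, 2 and 3. LS1 replicates 1 and 2 lay below all Control libraries and LS1 replicate 3 above them. As a share of all reads, *Gas5* took 0.0363% to 0.0415% in Control and 0.0172%, 0.0202% and 0.0240% in LS1 replicates 1, 2 and 3.

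**Figure D4:**
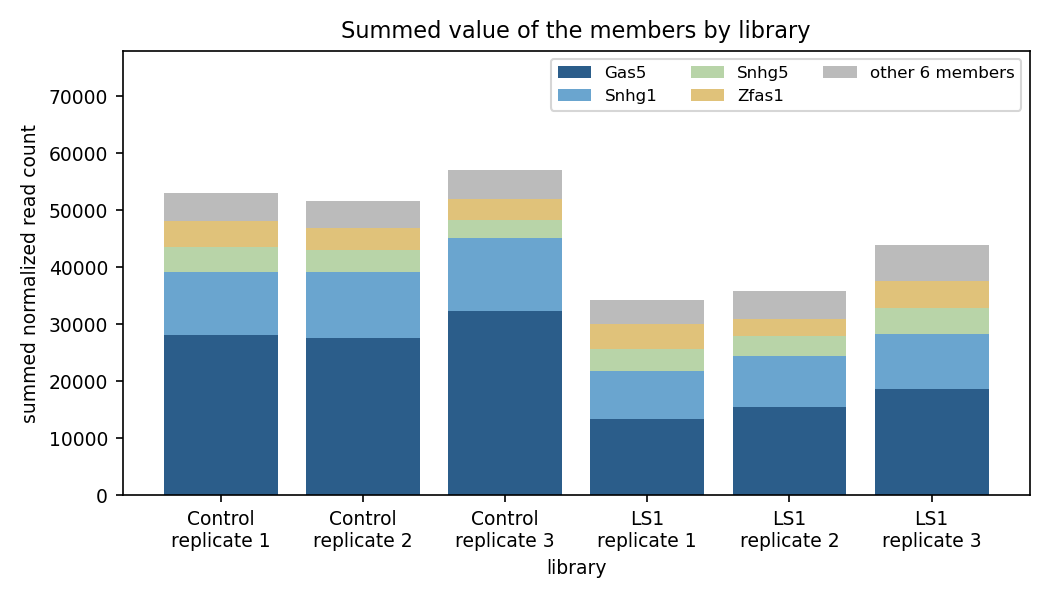
Summed normalized read count of the 10 members in each library, split by gene. The *Gas5* segment is 27664 to 32384 in Control and 13477 to 18725 in LS1, and the segments above it sum to less than in any Control library in LS1 replicates 1 and 2 and to more than in any Control library in LS1 replicate 3.

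The neighbours of the members on the opposite strand were examined because some share a start region or exons with them and the strand setting of the counting is not given in the sources used here. *Zbtb37*, which overlaps the 5′ end of *Gas5* but none of its exonic bases, held 659 to 913 normalized counts in Control and 724 to 1039 in LS1, a log2 fold change of 0.13 (adjusted p = 0.823, limma). *Slc3a2*, the heavy chain of the CD98 amino acid transporter, starts 106 bases from *Snhg1* and had a log2 fold change of 0.09 (adjusted p = 0.818). Neither neighbour shared the lower values of its host gene in LS1. *Znfx1*, which shares 82 exonic bases with *Zfas1*, had 0.15, and Gm17300, which overlaps *Snhg3*, had 0.28. *Mcmdc2*, which shares 127 exonic bases with *Snhg6* at a mean of 29.3 reads, had -0.95 with an adjusted p of 0.401.

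The start regions are shown because the TOP tract is the feature that *Gas5* and *Snhg1* are known to share with ribosomal protein genes. Each window runs from 20 bases before to 30 bases after a RefSeq transcript start (GRCm38.p6). Capitals mark the longest run of C and T that overlaps the stretch from 10 bases before to 20 after the start.
Gas5 upstream start: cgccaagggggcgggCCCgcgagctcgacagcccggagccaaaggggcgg
Gas5 downstream start: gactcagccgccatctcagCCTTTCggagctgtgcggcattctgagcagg
Snhg1 start: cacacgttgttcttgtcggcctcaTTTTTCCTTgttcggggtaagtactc
Snhg12 start: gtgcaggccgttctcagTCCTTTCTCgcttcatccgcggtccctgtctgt
The upstream *Gas5* start (chr1:161034581-161034630) held a run of 3, and the downstream start (chr1:161035146-161035195) a run of 6 beginning at the base before the start. A run of 6 or longer was found in 36.3% of 32851 such windows. *Snhg1* (chr19:8723467-8723516) and *Snhg12* (chr4:132308658-132308707) each had a run of 9, found in 11.6% of windows. The run began at base 5 after the annotated *Snhg1* start was counted as base 1, and 3 bases before the *Snhg12* start. Neither run began at the annotated start itself. *Snhg8* and *Snhg5* had 7, *Snhg3* had 5, and *Zfas1* and *Snhg15* had 4. These are letters in a window, and the start used in this tissue was not measured. *Snhg1* and *Snhg12*, the members with the longest runs, had log2 fold changes of -0.39 and 0.25, and limma called neither. A link between run length and fold change was not tested.

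Ribosomal protein genes, the best known TOP mRNAs and often snoRNA hosts themselves, were lower in LS1 in most cases without any being called by limma. Of 79 tested, 68 had a negative log2 fold change. An unadjusted p under 0.05 with lower values in LS1 was reached by 22 (27.8%), beside 5.86% of all genes. The median was -0.31, and 16 (20.3%) lay wholly below Control, beside 8.94% of all genes. *Rpl4* held 113873 to 154814 normalized counts in Control and 84317 to 116771 in LS1, and *Rps3* had a log2 fold change of -0.18. *Rpl27a*, with 10869.8 to 18732 in Control and 6448 to 9050.2 in LS1, had an adjusted p of 0.142, and *Rpl13* had a log2 fold change of -0.84 and an adjusted p of 0.194, both named after their values were seen. Many ribosomal protein genes have near-identical pseudogene copies, and how reads were shared among them is not stated. DESeq2 called 7 of the 79, where it called 2.51% of all genes. Limma called 0 to 3 when 1 library was left out, beside 0.0259% to 1.68% of all genes. The median difference of these genes from the Control mean was -0.36, -0.41 and -0.04 in LS1 replicates 1, 2 and 3, against a Control range of -0.13 to 0.17. LS1 replicates 1 and 2 were thus below that range and LS1 replicate 3 inside it, and *Gas5* was below its Control range of -0.09 to 0.14 in all 3.

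Of 16 other TOP mRNAs tested, chiefly those of translation elongation and initiation factors, 11 had a negative log2 fold change, with a median of -0.07. Wholly below Control lay 0 of them, beside 8.94% of all genes. The difference between this list and the ribosomal protein genes was not tested. *Eef1a1*, the main elongation factor, held 294898 to 310380 normalized counts in Control and 311253 to 333320 in LS1, wholly above Control with a log2 fold change of 0.10, and *Eef2* had -0.20. The kinases and regulators that control TOP translation had a median of -0.07 over 10 genes, with -0.20 for *Larp1*, the TOP-binding protein, and 0.18 for the S6 kinase gene *Rps6kb1*. None of these lists had a called gene in limma, and for *Eef1g* at -0.40 and *Mlst8* at -0.35 the unadjusted p was 0.0352 and 0.0281.

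Hosts in general were centred on 0. Over 233 tested protein-coding genes that hold a snoRNA on their strand, the median log2 fold change was -0.0002, with 26 (11.2%) wholly below and 21 (9.01%) wholly above Control, beside 8.94% and 10.3% of all genes. Limma called 0 of them, and DESeq2 called 6, beside its 2.51% over all genes. An unadjusted p under 0.05 from limma was reached by 29, beside 12.9% of all genes. Split by function, the 30 that encode ribosomal proteins had a median of -0.23 and the other 203 one of 0.03. *Eif4g2*, the most abundant of them, held 122044 to 137267 normalized counts in Control and 128649 to 189133 in LS1. Of 5 further *Snhg* genes tested, *Snhg11*, *Snhg14* and *Snhg17* lay wholly above Control, where 10.3% of all genes did. *Snhg17* held 1064 to 1344 normalized counts in Control and 1345 to 1768 in LS1 (log2 fold change 0.38, adjusted p = 0.401). *Snhg18* had -0.14 and *Snhg20* -0.24.

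The proteins that build and escort snoRNPs, the particles in which snoRNAs act, were tested as 17 genes. Their median was 0.02, with 0 calls by limma or DESeq2. Of the 17, 3 (17.6%) had an unadjusted p under 0.05, all lower in LS1, beside 5.86% of all genes. Wholly below Control lay 4 of them (23.5%, beside 8.94% of all genes), core proteins of both classes among them, and 1, *Znhit3*, named after its values were seen, lay wholly above. *Dkc1*, encoding the pseudouridine synthase dyskerin of H/ACA particles, held 9442 to 11279.6 normalized counts in Control and 8140.3 to 8945 in LS1, a log2 fold change of -0.29 (adjusted p = 0.359). *Fbl*, encoding the C/D methyltransferase fibrillarin, had -0.39 and *Nop56* -0.29, both named after their values were seen. *Nop58*, the partner of *Nop56* in the C/D particle, had 0.20.

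Factors of nonsense-mediated decay, which removes *Gas5* and *Snhg1* exons in growing cells, were not called. Of 16 genes, 12 had a negative log2 fold change, the median was -0.07, and 0 reached an unadjusted p under 0.05, beside 12.9% of all genes. Wholly below Control lay 3 (18.8%, beside 8.94% of all genes), *Upf3b*, *Smg5* and *Smg6*, named after their values were seen. Wholly above lay 0, beside 10.3% of all genes. *Smg1*, the kinase of the pathway, had a log2 fold change of 0.17 and *Smg5* one of -0.30. Of 5 stress transcripts known to be sensitive to that decay, *Atf4* had -0.08 and *Gadd45a* -0.12, while *Atf3*, named after its value was seen, had 0.51 (adjusted p = 0.332). For 12 genes of the glucocorticoid receptor and its targets the median was -0.01, with 0.32 for the receptor *Nr3c1* and -0.01 for *Fkbp5*. *Sgk1*, named after its values were seen, had the highest log2 fold change of the 12 at 0.45 (adjusted p = 0.277, limma). It held 3229 to 4250.4 normalized counts in Control and 4714 to 5863 in LS1. Of the 12, 7 had a negative log2 fold change.

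Genes were ordered by how like their profile over the 6 libraries was to that of *Gas5*. Likeness was measured as the root mean square difference of centred log2 values over 15331 genes with a mean of at least 1 CPM. *Wfdc21* came first at 0.068, then *Endou* at 0.116, *Cd72* at 0.117, *Cd37* at 0.120 and the pseudogene Gm5648 at 0.121. *Cd72* and *Cd37* encode surface proteins of B lymphocytes, and whether cell content had a part in the likeness was not tested. *Cd72* held 1873, 1675 and 2416 normalized counts in Control and 983, 1126 and 1442 in LS1. Among the members, *Snhg1* was nearest to *Gas5* at 0.266, and the points share their libraries and the difference between the lines.

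Most B cell, erythroid and proliferation markers had lower values in LS1 and most chondrocyte markers higher ones, and their part in the *Gas5* difference was not tested. Of 10 B cell markers, 9 had a negative log2 fold change with a median of -0.44, and 4 lay wholly below Control. Over all tested genes, 8.94% lay wholly below Control and 10.3% wholly above, the shares to set beside this and the later counts here. Their normalized counts summed to between 53506 and 57204 in Control libraries and to between 32733 and 51194 in LS1 libraries. The 10 erythroid markers had a median of -0.59, and 2 of them, the globin genes *Hba-a2* (log2 fold change -1.42, adjusted p = 0.0291) and *Hbb-bs* (-0.95, adjusted p = 0.0408), were lower by the limma test. Summed, the erythroid markers reached 1729500 to 2263250 normalized counts in Control libraries and 920801 to 1136360 in LS1 libraries. All 12 proliferation markers were negative, with a median of -0.34 and 9 wholly below Control, as for *Mki67* at -0.48. Of 14 chondrocyte markers, 8 lay wholly above Control and the median was 0.49. The medians of the other lists were 0.36 for hypertrophic chondrocytes, -0.11 for osteoblasts, 0.03 for osteoclasts, 0.19 for neutrophils, 0.28 for macrophages, 0.08 for endothelium, -0.79 for skeletal muscle and 1.49 for the 12 interferon-stimulated genes, of which 5 lay wholly above Control. No marker was at 0 in all libraries. Without LS1 replicate 3, limma called 4 B cell, 3 erythroid and 4 chondrocyte markers, in a setting that called 1.68% of all genes. Without Control replicate 1 or 2 it called 0 erythroid markers, beside 0.0466% and 0.0259% of all genes.

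By library, the order of the LS1 values differed among these lists. Relative to the Control mean on the log2 scale, *Gas5* was at -1.12, -0.91 and -0.65 in LS1 replicates 1, 2 and 3. The B cell median was at -0.39, -0.94 and -0.22, the erythroid median at -1.04, -0.42 and -0.41, and the proliferation median at -0.41, -0.24 and -0.30. LS1 replicate 1 was lowest for *Gas5*, *Snhg1*, erythroid and proliferation genes, and LS1 replicate 2 for B cell and ribosomal protein genes.

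**Figure D5:**
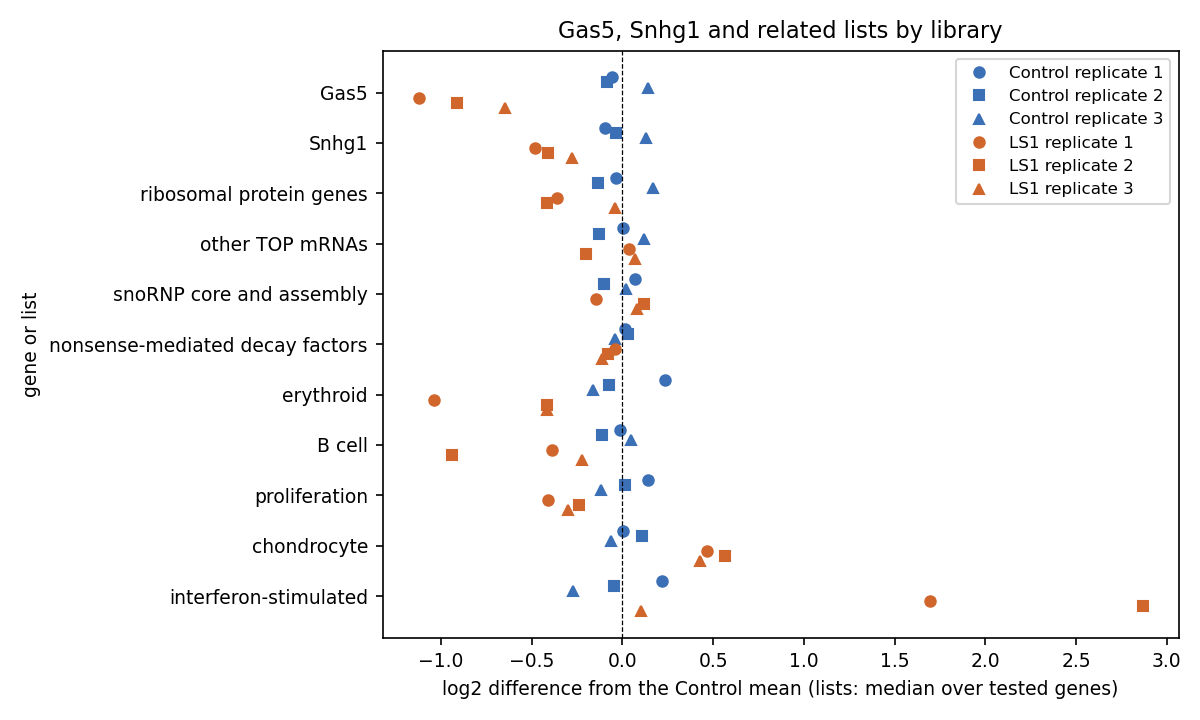
Log2 difference of each library from the Control mean for *Gas5*, *Snhg1* and the median gene of 9 lists, with Control libraries in blue and LS1 libraries in orange. *Gas5* is at -1.12, -0.91 and -0.65 in the LS1 libraries, and the interferon-stimulated list shows LS1 replicate 3 at 0.10, apart from LS1 replicates 1 and 2.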

How the data were processed

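RNA of 3 Control and 3 LS1 mice was analysed. The submitters' processing notes name HISAT2 2.0.2, featureCounts 1.4.6 and DESeq2, with GRCm38 as the build, and the authors scaled the counts with DESeq2. The deposited signal is the read count divided by 1 size factor per library, and 100% of values were whole multiples (within 0.01 reads) of the value of 1 read, so reads were recovered. For Control replicate 1 that value was too near 1 to tell recovered reads from rounded values. Genes with a mean of at least 20 reads (19308) were compared on log2(value + 1) by limma 3.58.1 (R 4.3.3), using a variance trend and robust moderation. Adjusted p is the Benjamini-Hochberg value over all of them, called under 0.05, and DESeq2 1.42.0 and edgeR 4.0.16 were alternatives on the recovered reads. Fold changes on this scale understate the change of genes with few reads.

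Annotation and snoRNA sequences came from GENCODE M21, and start regions from RefSeq, where 8 of the 10 members matched. Symbols were found for 98.9% of identifiers. The members and lists were chosen with earlier results of these data known. Named were all members, their neighbours, called genes and the 2 most abundant genes of each related list, and the 5 genes most like *Gas5*. Other genes, including further *Snhg*, marker and ribosomal protein genes, were named after their values were seen. The statistical steps were tested on simulated data.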

Additional observations from a re-analysis of the deposited data

How the results depend on the processing

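With 3 libraries per line and a threshold set over all genes, the number of calls moved widely with the test. It was 14 in limma, 456 with DESeq2, 7 with edgeR, 8 with limma-voom, 45 with no filter on reads, 9 with a mean of at least 100 reads and 3 with no variance trend, and from 5 to 324 when 1 library was left out. The tests on 5 libraries without Control replicate 1, chosen after seeing the data, called 243 genes with DESeq2 and 5 with edgeR. *Gas5* was called with a log2 fold change of -0.90 by DESeq2, -0.89 without a filter and -0.93 by DESeq2 on 5 libraries, each time as the 1 member called. Leaving out 1 library gave -1.02 to -0.78 and 0 to 1 members called. A replicate block by the shared letter of the titles called 12 genes, among them *Gas5* (-0.89, adjusted p = 0.0408) as 1 member, but the correlations of same-letter libraries were 0.0536, 0.0211 and 0.224, and Control replicate 1 was closer to LS1 replicate 2 (0.0824). *Zfas1* turned negative with limma-voom (-0.000205) and upper-quartile scaling (-0.0097). Leaving out 1 library gave -0.11 to 0.21 for *Zfas1*, -0.091 to 0.16 for *Snhg5* and -0.81 to 0.15 for *Epb41l4aos*. The cause of these shifts was not tested. *Snhg1*, *Snhg6*, *Snhg8*, *Snhg12* and *Snhg15* kept their sign in 19 of 19 alternatives. Low read numbers limit *Snhg3* and the snoRNA entries.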
